A study of Mus musculus with 6 samples.

Results

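The cytosolic ribosomal protein genes encode the proteins that, with the ribosomal RNAs, build the ribosomes of the cytoplasm. They were taken by name. Every listed gene symbol made of Rpl or Rps, a number and an optional a, l or x was used, together with Rpsa, Rplp0, Rplp1 and Rplp2, and symbols of pseudogenes and of the Rps6k kinases were left out. Of 24394 gene symbols, 81 fit this pattern, and 74 of them reached a mean of 1 FPKM over the 6 libraries and are the genes described here. FPKM counts sequenced fragments per transcript after correction for transcript length and library size. Of the 74 genes, 43 belong to the large subunit and 31 to the small subunit. The lowest of them was Rps4l with a mean of 6.53 FPKM, taken by its name although its listed transcript is a non-coding record. The symbols just outside were Rpl3l with 0.541 FPKM and Rpl39l with 0.377 FPKM.

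Bone marrow-derived macrophages (BMMs) were grown from marrow monocytes of wild type C57BL/6 mice at postnatal day 28, with macrophage colony-stimulating factor at 50 ng/ml for 7 days. Crushed cartilage from the femoral heads of the same mice was then added to 3 cultures for 24 h, at a ratio of 5 fragments to each macrophage, while 3 further cultures without it served as controls. Polyadenylated RNA of each culture was sequenced as paired reads of 100 bases. No source used here says whether the 3 cultures of a group came from separate mice, so the p-values measure the spread between these cultures, which may be technical. The comparison asks how the transcripts of these genes differed after contact with cartilage fragments.

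A ribosome has a small subunit that reads the messenger RNA and a large subunit that forms the peptide bond. Its proteins are needed in equal numbers, apart from the acidic stalk proteins, and their messenger RNAs are among the most abundant and most stable of a mammalian cell. Most of these messages begin with a C followed by a run of pyrimidines, the terminal oligopyrimidine (TOP) motif, through which the kinase complex mTORC1 and the RNA-binding protein Larp1 set how strongly they are translated. Control of this kind acts on translation, which RNA-seq of total messages does not measure. Macrophages that meet particles or microbial products make large amounts of cytokines and surface proteins, which this machinery translates.

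RefSeq start sites on GRCm38.p6 were found for 54 of the 74 genes, with 64 windows in all. At 12 of the 64 windows (18.8%) the first transcribed base was a C followed by at least 4 bases that were all C or T, compared with 2.51% of the 32851 windows of all genes. The 12 genes were Rpl14, Rpl15, Rpl28, Rpl35, Rpl35a, Rpl38, Rplp2, Rps6, Rps10, Rps15a, Rps18 and Rps21. Windows from 10 bases before the start to 20 bases into the transcript are shown for 8 of them. The run of pyrimidines is in capitals, because it is the feature by which these 12 genes were picked out.
Rps6 (chr4:86857348-86857377, minus strand): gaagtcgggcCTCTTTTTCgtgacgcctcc
Rps10 (chr17:27635225-27635254, minus strand): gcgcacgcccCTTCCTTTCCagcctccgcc
Rps18 (chr17:33955646-33955675, minus strand): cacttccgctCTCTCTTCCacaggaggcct
Rpl15 (chr14:18270967-18270996, minus strand): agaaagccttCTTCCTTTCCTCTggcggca
Rpl28 (chr7:4792955-4792984, plus strand): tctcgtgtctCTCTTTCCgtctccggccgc
Rpl35 (chr2:39005112-39005141, minus strand): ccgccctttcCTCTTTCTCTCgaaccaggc
Rpl38 (chr11:114668570-114668599, plus strand): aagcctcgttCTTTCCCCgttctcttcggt
Rplp2 (chr7:141447641-141447670, plus strand): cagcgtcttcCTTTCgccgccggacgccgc

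The longest run, of 13 bases, was that of Rpl15. For 42 genes with a window no such run lay at the annotated start. Windows of 3 of them, whose values are described below because their groups did not overlap, are shown for comparison.
Rpl11 (chr4:136053374-136053403, minus strand): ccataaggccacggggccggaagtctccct
Rplp0 (chr5:115559457-115559486, plus strand): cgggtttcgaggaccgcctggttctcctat
Rps15 (chr10:80292421-80292450, plus strand): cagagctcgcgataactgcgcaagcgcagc

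A further run of letters was shared more widely. CGGAAG, read on either strand of the 300 bases from 250 before to 50 after the start, lay in 39 of the 64 windows (60.9%) and in 16.9% of all windows. Read on the other strand it is CTTCCG, so it can overlap a run of pyrimidines. The letters TATAAA lay in 6 of the 64 windows (9.38%) and in 13.6% of all windows. These are matches of letters at annotated starts, and no reads of start sites were made in this study.

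Fragments were estimated from the deposited coverage as coverage times transcript length over the read length of 100 bases. The library total that the FPKM imply on this scale was 742835 to 776371 fragments in control and 699237 to 754139 with cartilage fragments, and the fragments of all listed transcripts summed to 791449 to 828765 in control and to 750502 to 813256 with cartilage fragments. The study's methods name a number of mapped reads per sample far above these totals, and the difference was not resolved, so fragment numbers here are units of the deposited files and may not equal sequenced fragments. Among reference transcripts longer than 2500 bases with under 4 estimated fragments, 74.6% to 76.9% in each library lay at or up to 0.25 above 1, 2 or 3. Beside the 34535 reference transcripts, each library listed 1453 to 1654 transcripts that were assembled from its own reads. The macrophage markers (7 genes) were detected, at a summed level of 39359 to 60486 FPKM in control and 40657 to 54585 FPKM with cartilage fragments, nearly all of it Lyz2 (36738 to 57950 FPKM over the 6 libraries). Adgre1, the gene of the macrophage marker F4/80, was at 349.8, 373.2 and 372.8 FPKM in control and at 557.0, 566.2 and 524.2 FPKM with cartilage fragments, with a limma adjusted p of 0.00908 in FPKM and of 1.29e-08 in fragments. Itgam, the gene of CD11b, was at 346.0, 354.3 and 362.0 FPKM in control and at 403.5, 434.2 and 436.8 FPKM with cartilage fragments, with a limma adjusted p of 0.186 in FPKM and of 0.000565 in fragments. Markers of T cells (3 genes) and of red cells (5 genes) were at 0 in all libraries, and 7 of 13 listed chondrocyte markers (Matn1, Matn3, Col9a1, Col9a2, Hapln1, Lect1 and Prg4) were at 0 while the sum of that list stayed at or under 5.21 FPKM. The 10 neutrophil and granule genes summed to 999.6 to 1081 FPKM in control and 871 to 1257 FPKM with cartilage fragments. The 7 fibroblast and osteoblast markers summed to 156 to 171 FPKM in control and 106 to 121 FPKM with cartilage fragments, groups that did not overlap, with Bglap at 0. Of these, Col1a1 had a limma adjusted p of 0.0856 in FPKM and of 1.81e-05 in fragments, and Col1a2 one of 0.295 in FPKM and of 0.00776 in fragments, both lower with cartilage fragments. The 4 proliferation markers summed to 15.3 to 19.2 and to 14.8 to 21.0 FPKM. The ribosomal RNA precursor record Rn45s, which a polyadenylated library should hold little of, was at 81.4 to 100.6 FPKM in control and at 93.4 to 145 FPKM with cartilage fragments. The part of any of these in the values below was not tested, and in RNA from whole cultures fewer cells of a type and less RNA per cell cannot be told apart.

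The ribosomal protein genes were among the most abundant messages of these macrophages. Their mean level had a median of 689 FPKM, compared with 11.2 FPKM over the 10409 genes tested, and 71 of the 74 were among the 500 most abundant genes. The middle of the distribution was narrow: 63 of the 74 genes lay between 250 and 1500 FPKM. The small-subunit genes had a median of 747 FPKM and the large-subunit genes a median of 581 FPKM. The order of the genes was nearly the same in every library, with a Spearman coefficient of 0.96 to 0.98 between any 2 libraries, as a description over 74 genes that share one annotation.

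**Figure D1:**
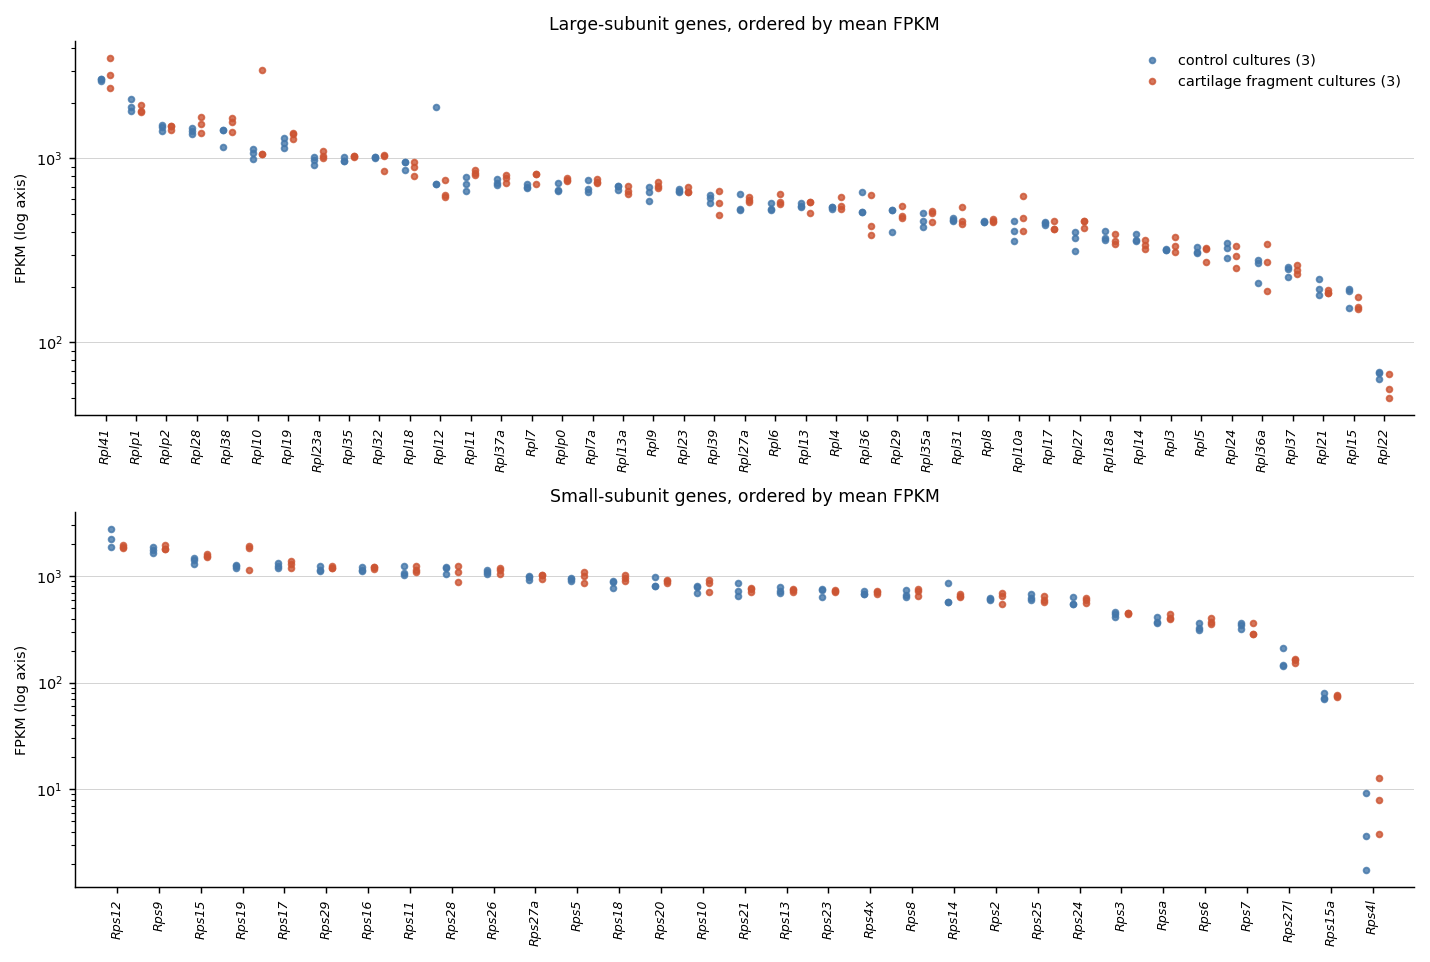
FPKM (log axis) of each of the 74 ribosomal protein genes in the 3 control cultures (blue) and the 3 cultures with cartilage fragments (red), large subunit above and small subunit below, ordered by the mean. Most genes lie between 250 and 1500 FPKM with the 6 cultures close together, and Rps4l stands lowest with a mean of 6.53 FPKM.

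The highest level per length was that of Rpl41, which encodes the shortest ribosomal protein. Its FPKM was 2653, 2716 and 2710 in the control cultures and 2842, 3529 and 2417 with cartilage fragments, so the treated cultures lay on both sides of the controls. Of the 3529 FPKM in the second treated culture, 3062 belong to a transcript of 399 bases assembled in that library. The log2 fold change of Rpl41 was 0.10 in FPKM and 0.06 in fragments. Rps12, a small-subunit protein, came next with 2233, 1876 and 2740 FPKM in control and 1967, 1860 and 1829 FPKM with cartilage fragments. Rplp1, an acidic stalk protein, was at 2096, 1898 and 1811 FPKM in control and at 1959, 1820 and 1798 FPKM with cartilage fragments. Rps9, which helps to guard the accuracy of decoding, was at 1745, 1634 and 1887 FPKM in control and at 1938, 1805 and 1779 FPKM with cartilage fragments. Rplp2, the partner of Rplp1 in the stalk, was at 1418, 1475 and 1524 FPKM in control and at 1496, 1500 and 1436 FPKM with cartilage fragments. In each of these genes the groups overlapped.

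At the other end stood Rps4l, a paralog of Rps4x listed with 1 exon as a non-coding record. Its 1.77, 3.65 and 9.22 FPKM in control and 12.8, 3.82 and 7.88 FPKM with cartilage fragments rest on 1.28 to 9.11 estimated fragments per library. Rpl22, a large-subunit protein that also binds viral and cellular RNAs, was at 63.4, 68.7 and 68.4 FPKM in control and at 55.8, 67.6 and 49.7 FPKM with cartilage fragments. Rps15a was at 71.8, 80.7 and 70.0 FPKM in control and at 76.4, 74.1 and 74.8 FPKM with cartilage fragments. Its listed transcript has 5134 bases, the longest of the 74 against a median of 718 bases, and its 267 to 314 estimated fragments per library were close to the median of 356 over all 74 genes and 6 libraries. Rps27l, a paralog of Rps27 that is known as a p53 target, was at 210, 142 and 146 FPKM in control and at 164, 165 and 152 FPKM with cartilage fragments. Rpl15, a large-subunit protein, was at 194, 190 and 153 FPKM in control and at 152, 177 and 156 FPKM with cartilage fragments. Over the 74 genes, mean FPKM had a Spearman coefficient of -0.62 with the listed transcript length and the mean scaled fragments one of 0.12, as a description of genes whose FPKM is divided by that length.

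The ribosomal protein genes together held 9.41%, 9.28% and 9.40% of all FPKM in the control cultures, a mean of 9.36% ± 0.07 (SD, n = 3). With cartilage fragments they held 9.83%, 9.35% and 8.96%, a mean of 9.38% ± 0.44 (SD, n = 3). The treated cultures lay above, within and below the control range. Of the summed fragments of all listed transcripts the genes held 3.58%, 3.64% and 3.59% in control and 3.79%, 3.74% and 3.57% with cartilage fragments, with means of 3.60% ± 0.03 and 3.70% ± 0.12 (SD, n = 3). Here 2 of the 3 treated cultures lay above the controls and the other lay just below them. The balance of the subunits was alike, since the large-subunit genes held 134%, 130% and 129% of the fragments of the small-subunit genes in control and 132%, 131% and 127% with cartilage fragments.

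**Figure D2:**
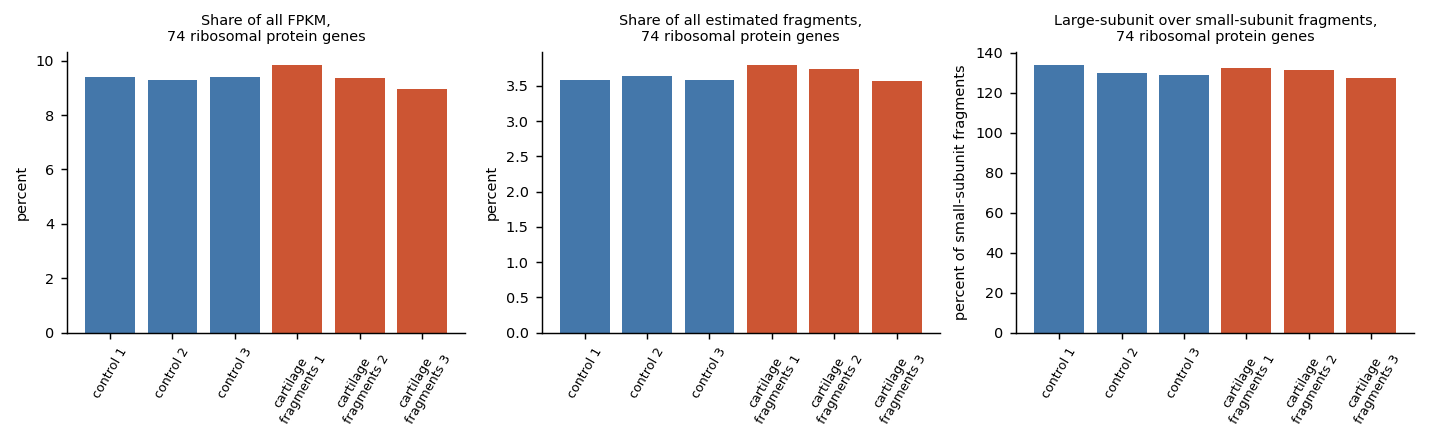
Share of all FPKM (left, percent) and of all estimated fragments (middle, percent) at the 74 ribosomal protein genes, and large-subunit fragments as a percent of small-subunit fragments (right), one bar per culture with control in blue and cartilage fragments in red. The FPKM share is 9.28% to 9.41% in control and 8.96% to 9.83% with cartilage fragments, so the groups overlap.

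No ribosomal protein gene passed the test between the groups. With limma on log2(FPKM + 0.1) and an adjusted p of 0.05, 31 of the 10409 genes tested were higher with cartilage fragments (0.298%) and 7 were lower (0.0672%), and 0 of the 74 ribosomal protein genes were called in either direction. The lowest adjusted p among them was 0.353, for Rpl27. At an unadjusted p under 0.05, 7 of the 74 were higher and 0 lower, against 5.46% and 3.88% of all genes tested. The same test on estimated fragments, scaled to the library total that the FPKM imply, called 163 genes higher (1.57%) and 77 lower (0.74%) and again 0 of the 74, with a lowest adjusted p of 0.255 for Rpl11. On that scale, 9 of the 74 were higher and 0 lower at an unadjusted p under 0.05, against 6.44% and 4.88%.

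The median log2 fold change of the 74 genes was 0.05 in both units, a fold of 1.04, with 0.00 over all genes tested, and the middle 50% of the 74 genes lay between -0.04 and 0.11 compared with -0.22 and 0.23 for all genes on the fragment scale. In FPKM, 50 of the 74 genes were above 0, against 50.3% of all genes tested, and on the fragment scale 51 were, against 50.4%. These counts depended on the scaling. With equal library totals, 40 of 74 were above 0, against 45.0% of all genes tested, with medians of 0.01 and -0.04. After quantile normalisation, 27 of 74 were above 0, against 47.8% of all genes tested, with medians of -0.04 and -0.02. The median of the 74 thus lay above that of all genes with equal totals and below it after quantile normalisation. On the fragment scale, 73 of the 74 genes lay within 0.25 of no change, all but Rps4l, and in FPKM 67 did. On the fragment scale the 95% interval of the difference reached a median of 0.16 to either side, and for 69 of the 74 genes it stayed within 0.5 on the log2 scale. The exceptions were Rpl10, Rpl12, Rpl22, Rpl36 and Rps4l. In FPKM the median was 0.18, and the interval reached past 0.5 for 10 genes (these 5, Rpl10a, Rpl27, Rpl36a, Rps12 and Rps19) and past 1 for 3 of them (Rpl10, Rpl12 and Rps4l). With 3 cultures a group, a change of any size inside the interval of a gene remains possible. Missing the threshold therefore does not show that a gene did not differ.

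**Figure D3:**
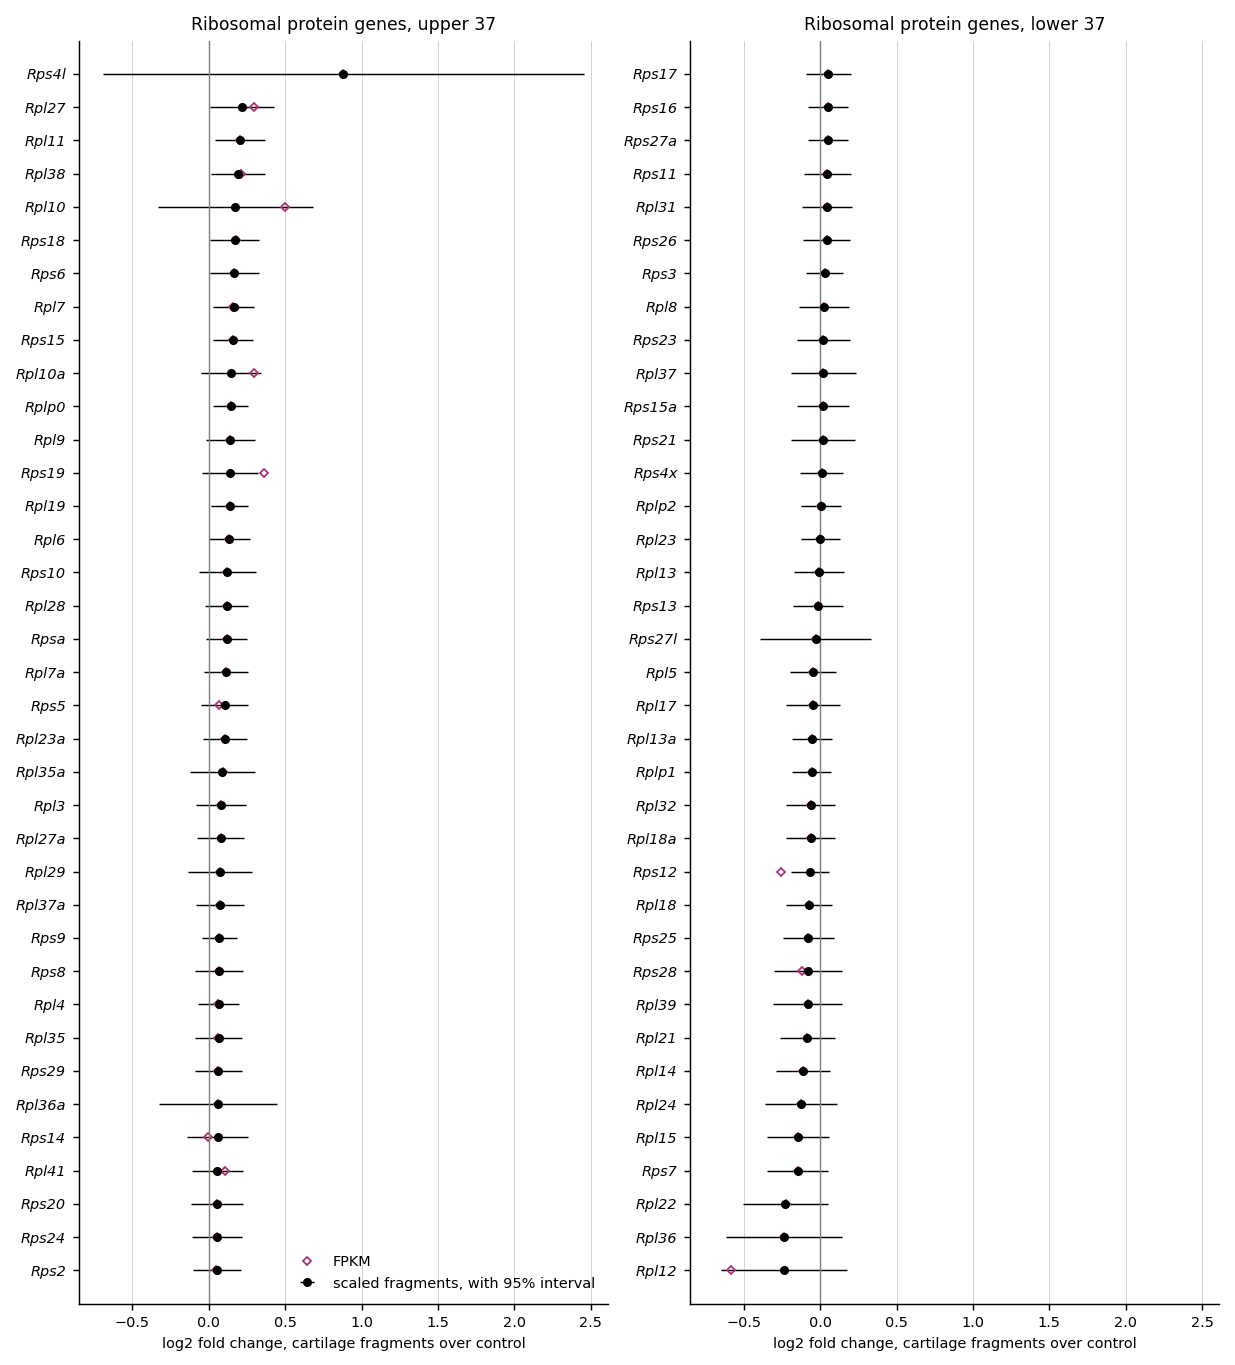
Log2 fold change of each of the 74 ribosomal protein genes, cartilage fragments over control, from estimated scaled fragments (black points with 95% intervals) and from FPKM (open diamonds), ordered by the former over both panels. All fragment-scale values but that of Rps4l lie within 0.25 of 0, and the diamonds leave the points mainly at Rpl10, Rpl10a, Rpl12, Rps12 and Rps19.

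In 6 of the 74 genes (8.11%) all treated cultures lay above all controls in FPKM, against 9.04% of all genes tested, and in 0 of the 74 they lay below, against 6.96%. On the fragment scale these counts were 6 and 0, against 9.39% and 7.35%. The share of genes that were apart and higher was therefore near the background. With any 1 culture left out, so that fewer values had to lie apart, 9 to 20 of the 74 were apart and higher in FPKM. In these settings 1 to 5 were apart and lower. No share over all genes tested is given for these settings, so these counts cannot be read against a background. Rpl11, which with Rpl5 and the smallest large-subunit RNA forms the particle that can bind the p53 regulator Mdm2, was at 724, 665 and 794 FPKM in control and at 864, 833 and 815 FPKM with cartilage fragments. Its log2 fold change was 0.21 ± 0.08 (SE) on the fragment scale, the highest of the genes that were apart in both units, with a 95% interval of 0.04 to 0.37 and an adjusted p of 0.255. Rpl7, a large-subunit protein, was at 701, 695 and 721 FPKM in control and at 820, 823 and 729 FPKM with cartilage fragments, a log2 fold change of 0.16 ± 0.07 (SE) with an adjusted p of 0.302. The third treated culture of Rpl7 lay only just above the highest control. Rps15, a small-subunit protein near the decoding site, was at 1294, 1402 and 1482 FPKM in control and at 1598, 1500 and 1558 FPKM with cartilage fragments. Its log2 fold change was 0.16 ± 0.06 (SE), with an adjusted p of 0.298. Rps18, which carries a TOP run in the windows above, was at 899, 775 and 879 FPKM in control and at 903, 961 and 1029 FPKM with cartilage fragments. The first treated culture of Rps18 was nearly level with the first control. The other gene apart in both units was Rplp0, given below, Rpl27 was apart in FPKM alone, and Rpl35 was apart on the fragment scale alone, with 966, 1023 and 964 FPKM in control and 1028, 1034 and 1023 FPKM with cartilage fragments.

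The stalk of the large subunit recruits the translation factors that split GTP. Rplp0, the protein that anchors the stalk and whose message is widely used as a reference in RT-PCR, was at 676, 735 and 668 FPKM in control and at 781, 763 and 752 FPKM with cartilage fragments. The groups did not overlap, and the log2 fold change was 0.14 ± 0.06 (SE) with a 95% interval of 0.03 to 0.26 and an adjusted p of 0.271. The groups of the other stalk genes overlapped, with lower log2 fold changes of -0.06 ± 0.06 (SE) for Rplp1 and 0.01 ± 0.06 (SE) for Rplp2. The 95% interval of Rplp2 reached from -0.13 to 0.14 and that of Rplp1 from -0.18 to 0.07.

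Rpl5, the partner of Rpl11, was at 309, 330 and 306 FPKM in control and at 325, 272 and 321 FPKM with cartilage fragments. The groups overlapped and the log2 fold change was -0.05 ± 0.07 (SE), so the pair of genes did not show the same sign. Rps6, the small-subunit protein that S6 kinases phosphorylate downstream of mTORC1, was at 312, 366 and 328 FPKM in control and at 353, 406 and 370 FPKM with cartilage fragments. The difference was 0.17 ± 0.08 (SE) on the log2 scale with an adjusted p of 0.42, and the first treated culture lay below the highest control. Rps27a, which is made as a fusion with ubiquitin, was at 975, 924 and 997 FPKM in control and at 1027, 1032 and 942 FPKM with cartilage fragments, with a log2 fold change of 0.05 ± 0.06 (SE). Rpsa, the laminin receptor precursor that is both a ribosomal and a membrane-associated protein, was at 363, 414 and 370 FPKM in control and at 437, 398 and 408 FPKM with cartilage fragments. Its groups overlapped through the second control, with a log2 fold change of 0.12 ± 0.07 (SE).

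Some ribosomal proteins have roles outside the ribosome. Rpl13a, which in interferon-treated myeloid cells leaves the ribosome to silence a group of inflammatory messages, was at 670, 707 and 711 FPKM in control and at 665, 637 and 711 FPKM with cartilage fragments. The groups overlapped, with a log2 fold change of -0.05 ± 0.06 (SE) and a 95% interval of -0.19 to 0.08. Rps3, which is also described as a partner of the NF-kB subunit p65, was at 417, 458 and 444 FPKM in control and at 451, 443 and 452 FPKM with cartilage fragments, with a log2 fold change of 0.03 ± 0.06 (SE). Neither gene showed a separation of the groups. Rpl22 had a log2 fold change of -0.23 ± 0.13 (SE) on 74.9 to 114 estimated fragments per library.

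In the paralog pairs of Rpl3, Rpl39 and Rpl10, the common form was expressed and the other form was at or near 0. Rps27l was not near 0, at 142 to 210 FPKM. Rps27 was listed at 0, but Rps27rt, a second record at the same place that is described below, was at 1281 to 1690 FPKM. The listed 0 therefore does not show that Rps27 was absent. Rps4x, an X-linked small-subunit gene, was at 682, 680 and 730 FPKM in control and at 713, 720 and 672 FPKM with cartilage fragments, with a log2 fold change of 0.01 ± 0.07 (SE). Rpl3, which lies by the peptidyl transferase centre, was at 323, 318 and 318 FPKM in control and at 374, 333 and 311 FPKM with cartilage fragments. Its muscle paralog Rpl3l was at 1.56 FPKM in the first control, at 1.69 FPKM in the second treated culture and at 0 in the other 4. Rpl39, in the wall of the exit tunnel, was at 610, 575 and 636 FPKM in control and at 666, 494 and 573 FPKM with cartilage fragments. Its paralog Rpl39l was at 2.26 FPKM in the third control and at 0 elsewhere. Rpl10l, the testis form of Rpl10, was listed at 0 in all 6 libraries.

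After that of Rps4l, the 6 largest differences in FPKM, at Rpl12, Rpl10, Rps19, Rpl27, Rpl10a and Rps12, were at genes with transcripts assembled in single libraries. At 13 of the 74 genes, 33 such transcripts were listed over the 6 libraries, with 207 to 1869 bases, and they carried no gene name and were given to the gene they overlapped most. Under its own name a gene was listed at 0 in 9 cases, in Rps19, Rps2, Rpl27 and Rps14, and after the assembled transcripts were added no gene was at 0. Rps19, a small-subunit protein that is mutated in Diamond-Blackfan anaemia and known to bind the cytokine Mif, was at 1197, 1231 and 1259 FPKM in control and at 1821, 1137 and 1912 FPKM with cartilage fragments. Treated values 1 and 3 are those of an assembled transcript of 497 bases (chr7:24884644-24889802), whereas the other 4 belong to the reference transcript of 629 bases. Its estimated fragments were 585, 586 and 588 in control and 683, 517 and 664 with cartilage fragments. The log2 fold change was 0.36 ± 0.19 (SE) in FPKM and 0.14 ± 0.09 (SE) on the fragment scale, with adjusted p of 0.638 and 0.603. Without the second treated culture, the log2 fold change of Rps19 in FPKM was 0.60 and passed the test with an adjusted p of 0.0139, while on the fragment scale its adjusted p was 0.0562. This was the only call of a ribosomal protein gene in any setting fitted.

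Rpl10, a late-joining large-subunit protein, showed the same kind of value. Its FPKM was 1070, 995 and 1131 in control and 3011, 1056 and 1062 with cartilage fragments. Of the 3011 FPKM in the first treated culture, 2026 belong to an assembled transcript of 227 bases (chrX:74272312-74273135). Its estimated fragments were 663, 602 and 671 in control and 938, 607 and 591 with cartilage fragments, so that culture stood apart in both units, and the log2 fold change was 0.50 ± 0.47 (SE) in FPKM and 0.17 ± 0.19 (SE) in fragments. Rpl12, at the base of the stalk, was the mirror case, with 1895, 730 and 723 FPKM in control and 759, 634 and 614 FPKM with cartilage fragments. In its first control 1351 FPKM belong to an assembled transcript of 207 bases (chr2:32963062-32964045). The log2 fold change of Rpl12 was -0.59 ± 0.43 (SE) in FPKM and -0.24 ± 0.17 (SE) on the fragment scale.

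Rpl27, a large-subunit protein, was at 369, 398 and 315 FPKM in control and at 456, 416 and 454 FPKM with cartilage fragments, and control value 1 and treated values 1 and 3 are those of assembled transcripts of 680, 704 and 599 bases. Its groups did not overlap in FPKM, with a log2 fold change of 0.30 ± 0.09 (SE), and did overlap on the fragment scale, with 195, 221 and 172 fragments in control and 242, 221 and 190 with cartilage fragments. Rpl10a was at 353, 401 and 457 FPKM in control and at 626, 403 and 473 FPKM with cartilage fragments, and its log2 fold change moved from 0.30 in FPKM to 0.15 in fragments. Rps12 moved from -0.26 to -0.07, with assembled transcripts of 338 and 517 bases in the first control and of 314 bases in the third. Rps2, a small-subunit protein at the entry of the messenger RNA, was at 620, 592 and 609 FPKM in control and at 646, 695 and 551 FPKM with cartilage fragments, so its groups overlapped, and 3 of its 6 values are wholly those of assembled transcripts. Rps14, a small-subunit protein lost in a form of myelodysplasia, was at 573, 867 and 570 FPKM in control and at 645, 686 and 634 FPKM with cartilage fragments, and the 867 FPKM of the second control belong to an assembled transcript of 523 bases.

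**Figure D4:**
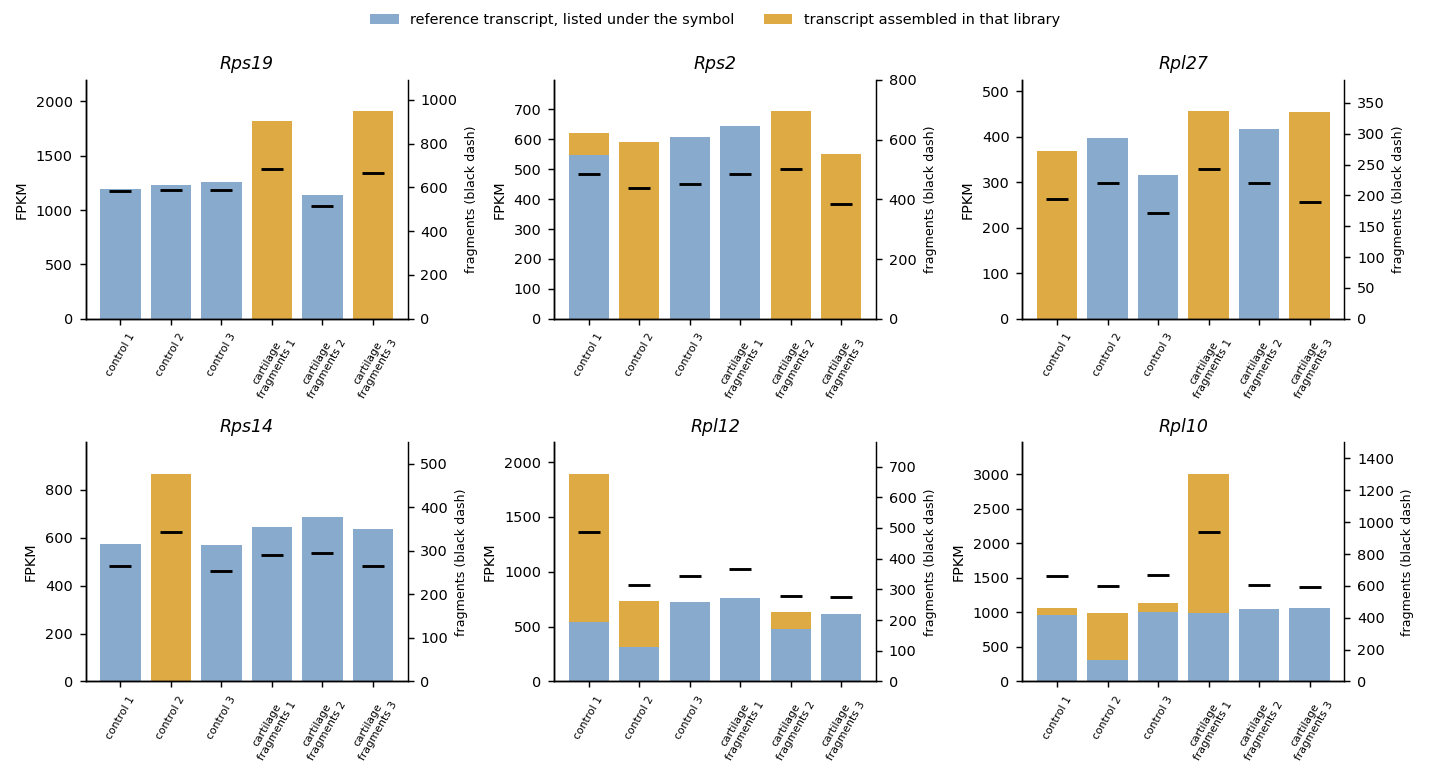
FPKM in each culture of 6 ribosomal protein genes, split into the reference transcript listed under the symbol (blue) and transcripts assembled in that culture's library (yellow), with estimated fragments as black dashes on the right axis. In Rps19 the assembled transcript carries 1821 and 1912 FPKM in treated cultures 1 and 3, whose fragments of 683 and 664 stand less far above the 585 to 588 of the controls.

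The genes with the lowest log2 fold changes that had no assembled transcript were Rpl36, Rpl22 and Rps7. Rpl36, a large-subunit protein, was at 513, 653 and 508 FPKM in control and at 430, 631 and 384 FPKM with cartilage fragments. Its log2 fold change was -0.24 ± 0.17 (SE) on the fragment scale, and the second culture of each group stood above the others. Rps7, a small-subunit protein that can also bind Mdm2, was at 321, 365 and 350 FPKM in control and at 289, 363 and 288 FPKM with cartilage fragments, with a log2 fold change of -0.15 ± 0.10 (SE) and an adjusted p of 0.626.

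Of the 7 symbols that fit the pattern but not the minimum, Rpl26, Rpl30, Rpl34 and Rps27 were listed at 0 in all 6 libraries although they are proteins of every ribosome. In each case a second record lay at the same place. At Rpl30 (chr15:34440506-34443233 for the second record) the record Gm12191 was at 651, 569 and 555 FPKM in control and at 702, 657 and 647 FPKM with cartilage fragments. At Rpl26, which is known to bind the p53 message (chr11:68901589-68904534), Gm15772 was at 1388, 1566 and 1289 FPKM in control and at 1387, 1406 and 1457 FPKM with cartilage fragments. At Rpl34 (chr3:130726837-130730329), Rpl34-ps1 was at 792, 1009 and 831 FPKM in control and at 835, 1019 and 908 FPKM with cartilage fragments. At Rps27 (chr3:90212667-90213647), Rps27rt was at 1690, 1559 and 1281 FPKM in control and at 1449, 1378 and 1306 FPKM with cartilage fragments. The levels of these 4 records lay within the range of the 74 genes, and which of the records at a place the fragments came from cannot be told apart from these values. With records at the same place joined, the log2 fold changes on the fragment scale were 0.18 ± 0.09 (SE) at Rpl30, 0.01 ± 0.07 (SE) at Rpl26, 0.07 ± 0.10 (SE) at Rpl34 and -0.12 ± 0.09 (SE) at Rps27, with adjusted p from 0.48 to 0.995. Reads of ribosomal protein genes can also match processed pseudogenes, since GENCODE lists 280 pseudogene symbols named after 56 of the 74 genes, up to 24 each for Rpl31 and Rps12, and how such reads were divided was not given in the sources used here.

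The 74 genes lay on 18 chromosomes, with 14 on chromosome 7 and 4 on the X chromosome (Rpl10, Rpl36a, Rpl39 and Rps4x). Their listed transcripts were short, with a median of 718 bases and 5 exons, from 1 exon in Rps4l to 10 in Rpl3 and Rpl4. In the GENCODE annotation, 28 of the 74 genes hold 55 small nucleolar RNAs within their bounds, most of them in Rpl4 with 5. The hosts had a median level of 644 FPKM and a median log2 fold change of 0.03, and the other 46 genes had medians of 725 FPKM and 0.06. The 12 genes with a TOP run at the annotated start had a median log2 fold change of 0.08 with 10 above 0. The 42 with a window but no run at that exact base had a median of 0.05 with 27 above 0. Some of these 42 have a run close by. The 20 with no window had a median of 0.05 with 14 above 0.

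The proteins that join or serve the ribosome were described in the same fit from lists chosen for their function. Fau encodes a ribosomal protein fused to a ubiquitin-like protein, and Gnb2l1 encodes Rack1 on the small subunit. Fau was at 946, 911 and 949 FPKM in control and at 985, 1025 and 1075 FPKM with cartilage fragments, so its groups did not overlap, with a log2 fold change of 0.14 ± 0.07 (SE) and an adjusted p of 0.466. Gnb2l1 was at 710, 691 and 625 FPKM in control and at 756, 763 and 709.5 FPKM with cartilage fragments, the latter just under the highest control of 709.9 FPKM. By limma neither gene was called in either unit.

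Of 37 initiation factors, 28 were above 0 on the fragment scale, against 50.4% of all genes tested, with a median log2 fold change of 0.10. On that scale 1 factor was called higher, against 1.57% of all genes tested. This was Eif4g2, which supports initiation that does not need the cap, with 140, 145 and 136 FPKM in control and 163, 157 and 163 FPKM with cartilage fragments. Its log2 fold change was 0.20 ± 0.05 (SE) with an adjusted p of 0.0282 on the fragment scale and 0.488 in FPKM, so the call rests on the unit. The highest of the list was Eif2b3, a subunit of the exchange factor of eIF2, at 0.967, 0.997 and 4.04 FPKM in control and 4.0, 4.17 and 4.31 FPKM with cartilage fragments, and the lowest was Eif1ax at 39.6, 35.4 and 35.8 and at 20.6, 42.9 and 22.1 FPKM. In FPKM 0 of the 37 were called. At an unadjusted p under 0.05, 4 were higher and 0 lower in FPKM, against 5.46% and 3.88% of all genes tested. Of 12 elongation and termination factors, 5 were above 0 on the fragment scale, against 50.4% of all genes tested. In either unit 0 were called. At an unadjusted p under 0.05, 0 were higher and 2 lower in each unit. Over all genes tested these shares were 6.44% and 4.88% on the fragment scale and 5.46% and 3.88% in FPKM. Eef1a1, which brings the loaded transfer RNA, was at 3355, 3429 and 3441 FPKM in control and at 3507, 3543 and 3455 FPKM with cartilage fragments. These groups were apart by a narrow margin, with a log2 fold change of 0.04 ± 0.03 (SE). On the fragment scale, 1 of the 12 was apart and higher and 2 were apart and lower, against 9.39% and 7.35% of all genes tested. The 2 apart and lower were Eef1d with -0.39 ± 0.18 (SE) and Eef1e1 with -0.92 ± 0.515 (SE). Their limma adjusted p were 0.398 and 0.531. The highest of that list was Gspt1, a release factor, with a log2 fold change of 0.18 ± 0.17 (SE) and the lowest Eif5a2 with -1.12 ± 0.50 (SE) at 0.604 to 4.46 FPKM.

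The 77 mitochondrial ribosomal protein genes, which build a separate ribosome inside mitochondria, had a median level of 19.3 FPKM. Their median log2 fold change was 0.01 on the fragment scale, with 39 above 0, against 50.4% of all genes tested. By limma 0 were called in either unit. At an unadjusted p under 0.05 there were 5 higher and 2 lower on the fragment scale and 3 and 1 in FPKM. Over all genes tested these shares were 6.44% and 4.88% on the fragment scale and 5.46% and 3.88% in FPKM. Mrps22 was the highest, with 5.14, 6.64 and 4.03 FPKM in control and 10.7, 11.1 and 15.8 FPKM with cartilage fragments. Its limma adjusted p was 0.139 in FPKM and 0.223 in fragments. The lowest adjusted p of the list was that of Mrps12, 0.134 in FPKM and 0.108 in fragments. Mrps12 was lower with cartilage fragments, with 48.8, 64.8 and 45.3 FPKM in control and 34.0, 26.5 and 24.3 FPKM with them. Mrps31 had the lowest log2 fold change, -1.39 ± 0.60 (SE), with groups that overlapped and a limma adjusted p of 0.362 in fragments.

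The upstream genes gave no call either. At an unadjusted p under 0.05, 6.44% of all genes tested were higher and 4.88% lower on the fragment scale. In FPKM these shares were 5.46% and 3.88%. They and the 50.4% above 0 on the fragment scale are the background for each list of this paragraph. Among 27 genes of mTORC1 and Larp1, 20 were above 0, against 50.4% of all genes tested, with a median of 0.11 on the fragment scale. By limma 0 were called in either unit. At an unadjusted p under 0.05, 0 were higher in both units and 1 was lower on the fragment scale. Larp1 was at 26.4, 22.7 and 27.1 FPKM in control and at 29.9, 28.4 and 29.3 FPKM with cartilage fragments, apart but with a log2 fold change of 0.20 ± 0.11 (SE). The highest of the list, Eif4ebp3, was listed at 0 in 3 libraries, and the lowest was Rragd with -0.39 ± 0.23 (SE). Of 80 ribosome assembly factors, 43 were above 0 with a median of 0.02, and 0 were called, with 2 higher and 0 lower at an unadjusted p under 0.05 in each unit. The highest was Nob1, which trims the small-subunit RNA, with 1.07 ± 0.66 (SE), and the lowest was Krr1, at 18.9 FPKM in the first control and listed at 0 elsewhere. Of 29 genes of the snoRNA particles and of RNA polymerase I, 16 were above 0 with a median of 0.05, and 0 were called, with 1 higher and 1 lower at an unadjusted p under 0.05 in each unit. Their extremes were Shq1 with 1.68 ± 0.82 (SE) and Taf1a with -2.56 ± 1.28 (SE), both under 4 FPKM in every library. Of 26 other genes with TOP messages, which share members with the lists above, 17 were above 0 with a median of 0.04, and 0 were called, with 1 higher and 3 lower at an unadjusted p under 0.05 on the fragment scale and 1 and 1 in FPKM. Their highest and lowest genes were the snoRNA hosts Snhg8 and Snhg6.

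**Figure D5:**
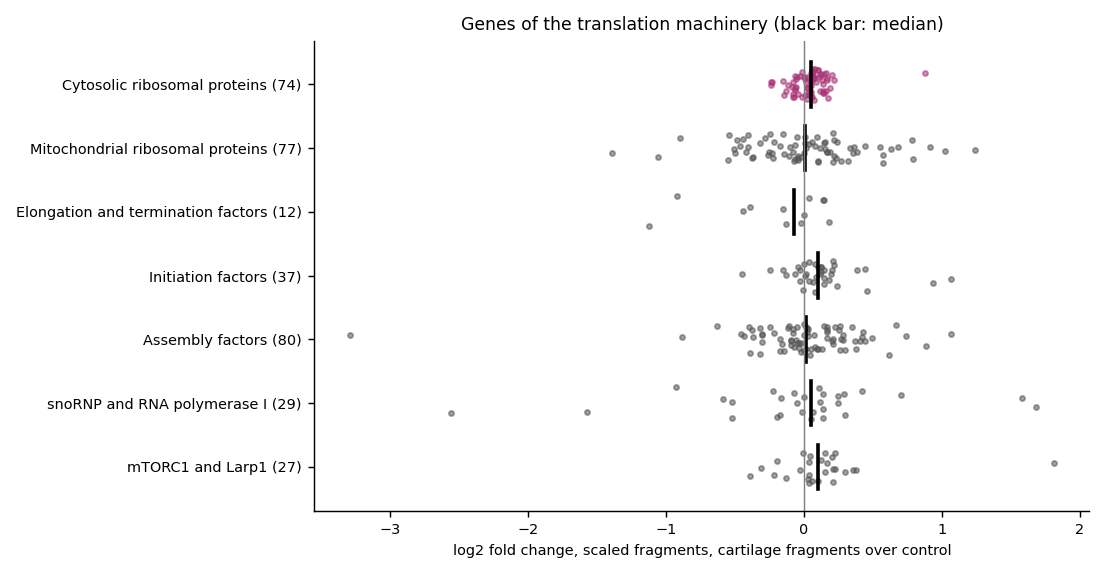
Log2 fold change on the fragment scale (cartilage fragments over control) of the 74 cytosolic ribosomal protein genes (purple) and of other lists of the translation machinery (grey), one point per gene, with the number of genes in brackets and the median as a black bar. The cytosolic ribosomal protein genes are gathered within 0.25 of 0 apart from Rps4l, and the mitochondrial ones reach from -1.39 to 1.24.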

How the data were processed

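RNA-seq of 3 control BMM cultures and 3 cultures with cartilage fragments was used. The authors aligned the reads to mm10 with TopHat and Bowtie and deposited FPKM and coverage per transcript from Cufflinks for each culture, and their methods also name TMM scaling and removal of low FPKM. Tool versions were not given in the sources used here. FPKM was summed per symbol, with each unnamed assembled transcript added to the symbol whose span it overlapped most. Groups were compared with limma 3.58.1 (lmFit, eBayes with trend and robust, two-sided) in R 4.3.3 on log2(FPKM + 0.1) for symbols with a mean of at least 1 FPKM, with Benjamini-Hochberg adjustment over all genes tested and a threshold of 0.05. This scale understates changes of low genes. Estimated fragments, scaled to the library, were fitted in the same way. The members, gene lists and roles were chosen with earlier results of these data known. Genes named are those past the threshold, the 5 highest and 5 lowest by fold change and by level, those listed at 0 in a library and those with set roles, and of other lists the called, highest and lowest genes. Other genes named (Rpl7, Rpl35, Rps15, Rps18, Fau, Eef1a1, Eef1d, Eef1e1, Mrps12, Larp1, Rps3a1 and, among the marker genes, Adgre1, Itgam, Lyz2, Col1a1 and Col1a2) were chosen after their values were seen. The fit was tested on simulated data. Certain genes are not reported here.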

Additional observations from a re-analysis of the deposited data

How the results depend on the processing

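The 74 genes kept 0 calls in every alternative except the one that left out the second culture with cartilage fragments, where Rps19 was called. Over 30 genes named with values and 900 alternative values, 868 moved by less than the spread between replicates, 31 moved by more and 1 passed the threshold, and 10 of the 30 genes kept their sign throughout. The median log2 fold change of the 74 was 0.01 with equal totals (0.0057 over all symbols and 0.0067 over symbols that are not members) and -0.038 after quantile normalisation. Over all genes tested the medians were -0.042, -0.041 and -0.016, in the same order. Genes of the 74 whose groups did not overlap numbered 2 higher and 1 lower with either equal total, and 1 was lower with reference transcripts only and with the highest line of a symbol only. Genes called over all genes tested, against 31 higher and 7 lower, were 14 higher without trend and robust fitting, 15 and 4 with reference transcripts only, 13 and 3 with the highest line only and 163 and 77 with fragments in place of FPKM. With fragments, size factors gave 158 and 83, joined records 165 and 76, and 1 gene of the other lists was called in each of these fits. Samples of different groups are linked only by a replicate number, and deviations of same-numbered samples in FPKM had correlations of -0.01 to 0.00. The mean chi-square between fragments of 2 libraries over tested genes is lower where they are more alike. Controls 1 and 2 had 1.59 and treated cultures 1 and 2 had 2.00. Control 3 had 3.14 and 3.09 with those controls, and 2.87 and 2.72 with those treated cultures. Treated culture 3 had 2.59 and 3.29 with those treated cultures, and 2.34 and 2.33 with those controls. Likeness thus partly cut across the groups, and its source was not tested. With the replicate number as a block, 17 genes were higher and 2 lower in FPKM and 154 and 77 in fragments, with 1 gene of the other lists called in fragments and 0 of the 74 in either. Leaving out 1 culture gave 16 to 26 genes higher and 0 to 6 lower in FPKM and 102 to 142 and 41 to 78 in fragments, with 0 to 1 of the 74 called in FPKM, 0 to 1 genes of the other lists in fragments, and 9 to 20 of the 74 apart and higher and 1 to 5 apart and lower in FPKM (9 to 21 and 1 to 5 in fragments). The share of all FPKM was 9.62% in control when taken over named symbols only (without assembled transcripts given to no symbol), 9.79% with status OK lines only, 10.7% in both groups with reference transcripts only, 8.74% and 8.63% with the highest line, and 3.60% and 3.70% with fragments. With reference transcripts only, log2 fold changes of genes listed at 0 in some libraries were -9.09 for Rps19, -4.11 for Rps2, -3.85 for Rpl27 and 4.36 for Rps14, by construction. The total over named symbols and, in fragments, the size factors, joined records, block and omission of cultures were chosen after seeing the data. The cause of the other shifts was not tested. No share over all genes tested is given beside the counts of the 74 that were apart in these alternatives. Genes under 100 fragments in a library (Rpl22, Rpl36a, Rps27l and Rps4l) rest on the fewest estimated fragments.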

Other observations

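Rps3a1, a small-subunit gene whose symbol lies outside the naming pattern, was at 643, 685 and 600 FPKM in control and at 668, 610 and 568 FPKM with cartilage fragments, so the groups overlapped, and the log2 fold change was -0.06 ± 0.07 (SE) on the fragment scale.

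Of the 4 listed paralogs that the symbol pattern leaves out, Rpl36al was at 175, 174 and 174 FPKM in control and at 171, 191 and 229 FPKM with cartilage fragments, with the treated cultures on both sides of the controls. Rpl22l1, the paralog of Rpl22, was at 45.3, 47.6 and 47.3 FPKM in control and at 45.3, 39.3 and 32.2 FPKM with cartilage fragments, all treated values at or below the lowest control. Its log2 fold change was -0.28 ± 0.31 (SE) with a limma adjusted p of 0.803. Of the 4 genes of that list 0 were called in either unit, and 0 passed an unadjusted p of 0.05.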
